A study of Mus musculus with 4 samples.

Results

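The E proteins and their Id inhibitors are 7 mouse genes: Tcf3, Tcf4 and Tcf12, which encode the class I basic helix-loop-helix (bHLH) transcription factors, and Id1, Id2, Id3 and Id4, which encode the inhibitors. They were picked by family membership, with their symbols matched through Entrez identifiers, from 27095 gene windows in a table of H3K27me3 counts. All 7 had a row in that table. The family was put forward with the comparison of genotypes already known, so its values in that comparison were in effect selected on the same readout; they are given as a description, with fold changes and their errors but no p-value, and support nothing further. Of the 7 genes, 3 held enough counts for the genome-wide fit, the E proteins, and 4, the Id genes, did not.

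E proteins bind the E-box sequence CANNTG as dimers, either with each other or with tissue-restricted (class II) bHLH partners, and drive the development of B cells, T cells and plasmacytoid dendritic cells. Id proteins have the helix-loop-helix but not the basic region that contacts DNA, so a dimer that holds one does not bind, and the balance of the 2 families steers blood lineages: Tcf4 maintains plasmacytoid dendritic cells, and Id2 is needed for innate lymphoid, NK and classical dendritic lineages. H3K27me3 is the repressive histone mark laid down by the Polycomb complex PRC2, of which Suz12 is an obligate subunit, and it is typically found at CpG-rich starts of genes that a cell keeps silent. Tcf4 here is the E protein E2-2 and Tcf3 is E2A, not the Wnt pathway factors that share these aliases.

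The mark was profiled by Cut&Tag, an assay in which an antibody guides a transposase to cut and tag chromatin, in alveolar macrophages, which clear particles and surfactant from the airspaces, sorted from lung of C57BL/6 background mice. The 2 wild-type and 2 Suz12 conditional knockout (cKO) libraries came from chimeras, lethally irradiated Ly5.1 hosts given marrow that was 90% Ly5.2 of the named genotype and 10% wild-type Ly5.1. The labels call the libraries biological replicates. Not given in the sources used here were the Cre driver, the age of the animals and whether the sort kept only Ly5.2 cells. Libraries held 2142175 to 3567282 counts within gene windows, and those of the cKO were deeper. The Suz12 window held 8 to 11 counts in each library, which does not check its deletion. Defining genes of alveolar macrophages carried little of the mark, with a median over 18 genes of 0.116 to 0.172 CPM per kb (CPM being counts scaled to a common library size, per kb of window) across the 4 libraries, against medians of 0.679 to 4.10 for lists of 7 other cell types. Plet1 was the 1 alveolar macrophage marker without a count in any library, and 95.1% of its window is shared with other windows; Ms4a1 of B cells and Tcf21 of fibroblasts, also at 0, lie wholly within shared windows. Each value is an average over sorted cells, so a change in the share of cells that carry the mark cannot be told apart from a change in the mark per cell.

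Each count covers a window assigned to a gene, so a value does not say where in the gene the mark lies. For 11525 of 27095 genes, Id2 and Id3 among them, the window length equals the reference gene span plus 3 kb on each side. Those of Tcf4 and Tcf12 differ slightly from it, and that of Cald1, at 72.0 kb, is shorter than the gene. Shares of overlap given here rest on reference spans with 3 kb on each side and are approximate. The sequence before most starts of these genes is CpG-rich. In the 250 bases upstream of the start, the dinucleotide CG, which reads the same on both strands, was counted 18 times at Id2, Id3 and Tcf3, 35 times at Id4 and 38 times at the outer start of Tcf12. Of 32841 RefSeq promoters of this length (GRCm38.p6), 92.1% held at least 1 CG, the median was 6, 21.7% held 18 or more and 1.88% held 38 or more. Of the 2 inner starts of Tcf12, the one close to the outer start (chr9:72111202-72111451) held 39 and the one deep within the gene held 0. The E-box CANNTG, also its own complement, occurred once before the start of Id2, of Tcf3 and of the outer and the nearby inner start of Tcf12. It was not found at Id3, Id4 or the deep Tcf12 start, and 66.2% of all promoters held it. Promoters of 5 of the 7 genes were in the RefSeq table. A CpG-rich and a CpG-free start of Tcf12 are shown because they mark the range within 1 gene, and those of Id2 and Id3 because their windows are short, so that the start makes up more of them. Each runs 5′ to 3′ on the gene's strand and ends just before the start, with every CG in capitals.

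Tcf12 outer start (chr9:72111820-72112069, minus strand): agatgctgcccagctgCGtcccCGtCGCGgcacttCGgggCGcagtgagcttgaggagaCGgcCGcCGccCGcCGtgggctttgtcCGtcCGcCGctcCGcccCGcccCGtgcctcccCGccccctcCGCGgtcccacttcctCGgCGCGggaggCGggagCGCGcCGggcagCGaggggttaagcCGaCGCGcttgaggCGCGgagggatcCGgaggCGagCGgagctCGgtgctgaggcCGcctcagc

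Tcf12 deep inner start (chr9:71896097-71896346, minus strand): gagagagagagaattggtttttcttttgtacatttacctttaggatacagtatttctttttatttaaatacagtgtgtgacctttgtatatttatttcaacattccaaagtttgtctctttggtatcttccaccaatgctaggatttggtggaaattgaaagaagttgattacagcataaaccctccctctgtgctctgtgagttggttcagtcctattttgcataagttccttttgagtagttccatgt

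Id2 (chr12:25096093-25096342, minus strand): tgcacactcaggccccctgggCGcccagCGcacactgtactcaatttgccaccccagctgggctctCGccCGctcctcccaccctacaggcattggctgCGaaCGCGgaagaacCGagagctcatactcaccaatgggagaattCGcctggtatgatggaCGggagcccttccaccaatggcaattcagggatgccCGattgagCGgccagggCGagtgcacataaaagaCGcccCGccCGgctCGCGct

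Id3 (chr4:136143572-136143821, plus strand): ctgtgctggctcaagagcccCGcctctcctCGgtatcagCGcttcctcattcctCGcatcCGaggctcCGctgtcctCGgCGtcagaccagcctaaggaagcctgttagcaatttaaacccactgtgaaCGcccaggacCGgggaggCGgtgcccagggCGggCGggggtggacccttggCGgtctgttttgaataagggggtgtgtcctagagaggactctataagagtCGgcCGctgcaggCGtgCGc

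Among the E proteins, Tcf4 held a larger share of the H3K27me3 counts in the cKO libraries and Tcf12 a smaller one. Tcf3 held few counts in both genotypes. Here and below, higher, lower, gained and lost refer to such shares. The amount of the mark per cell was not measured. Tcf4 (Entrez 21413, chromosome 18, 69343429 to 69687967 in mm10), which directs plasmacytoid dendritic and B cell development, had counts of 335 and 313 in wild type and of 1091 and 1214 in cKO. Scaled with TMM factors (weights that adjust library sizes), these were 130 and 143 CPM in wild type and 334 and 355 in cKO. Both cKO values lay far above both wild-type values, and the replicates of a genotype lay close together. The mean was 137 ± 9.48 CPM in wild type against 344 ± 14.8 in cKO (SD, n = 2 each), a log2 fold change of 1.34 ± 0.10 (SE), or 2.52-fold.

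Tcf12 (HEB; Entrez 21406, chromosome 9, 71844252 to 72111893), which pairs with Tcf3 in thymocyte development, had counts of 63 and 56 in wild type and of 46 and 34 in the deeper cKO libraries. These were 24.4 and 25.6 CPM in wild type and 14.1 and 9.93 in cKO, so the genotypes did not overlap. The mean went from 25.0 ± 0.856 to 12.0 ± 2.92 CPM (SD, n = 2 each), a log2 fold change of −1.06 ± 0.27 (SE). Without cKO library 2 the fold change was −0.82 and was not called, and it was also not called by DESeq2 at −1.06 or with scaling to housekeeping genes at −0.80.

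Tcf3 (E2A; Entrez 21423, chromosome 10, 80409541 to 80433976), which is needed for B cell commitment, had counts of 15 and 14 in wild type and of 20 and 12 in cKO. In CPM these were 5.82 and 6.41 against 6.12 and 3.50, and the genotypes overlapped. Its log2 fold change was −0.34 ± 0.49 (SE), and it was 0.0073 without cKO library 2 and −0.79 without cKO library 1, so that its sign rests on cKO library 2. The window of Uqcr11 overlaps 10.8% of that of Tcf3, and the values are uncertain to that extent.

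Of the 3 tested members, 1 was called gained and 1 lost at an adjusted p below 0.05 over all tested genes. Among all 16752 tested genes 6.42% were called, with 4.46% gained and 1.96% lost. This split moved with the scaling: 747 gained and 329 lost became 494 and 519 with upper-quartile factors, and 545 and 26 with housekeeping scaling. Nothing is read from this count, since the same contrast was known when the family was chosen. Tcf4 kept its call in each of the 13 alternatives tried, with log2 fold changes of 1.25 to 1.62. Tcf12 was called under 9 of its 12 and Tcf3 under 0 of its 12.

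**Figure D1:**
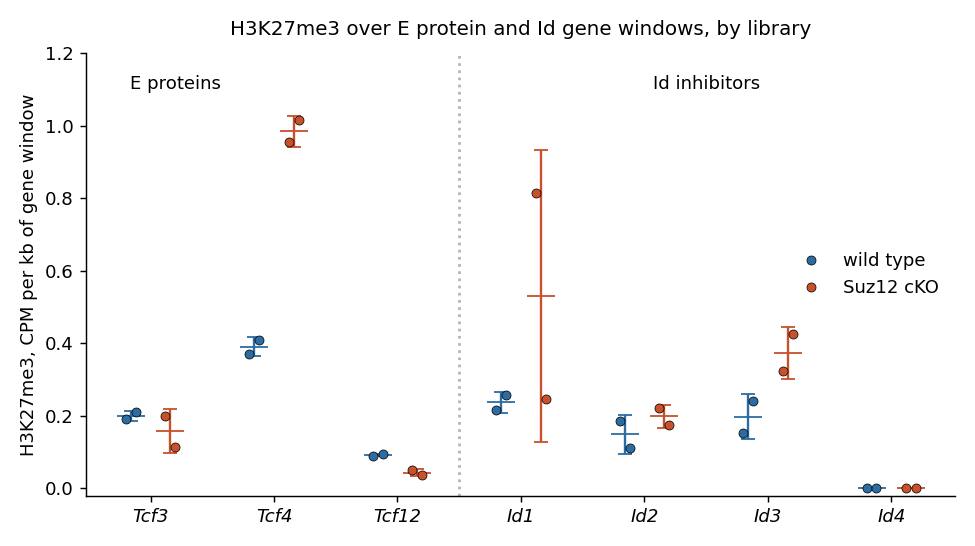
H3K27me3 in CPM per kb of gene window (vertical axis) for each member, with a point for each library, a bar at the mean and whiskers of 1 SD (n = 2 per genotype). Both cKO points of Tcf4 lie far above its wild-type points, those of Tcf12 lie below them, and the Id genes lie low, with 1 high cKO library at Id1.

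Levels of different genes are given per kb of window, an average over windows that run from 7.14 kb at Id1 to 349 kb at Tcf4. Where in a window the mark lies is not known, and a mark at the start alone would weigh less in a long window. The order of short and long windows is uncertain to that extent. In wild type Tcf4 was the most marked of the 7, at 0.391 ± 0.0271 CPM per kb (SD, n = 2), followed by Id1 at 0.237 ± 0.0278, Tcf3 at 0.201 ± 0.0138, Id3 at 0.198 ± 0.0624, Id2 at 0.149 ± 0.0542 and Tcf12 at 0.0915 ± 0.00313. The ranges of 1 SD were separate between Tcf4 and Id1 and overlapped between all other neighbours in this order. All of these lay below the wild-type median of tested genes, 0.672 CPM per kb. Among tested genes Tcf4 stood at percentile 37.6 in wild type, Tcf3 at 24.4 and Tcf12 at 4.46. The count filter left out windows with few counts, the Id genes among them, so ranks among all windows differ. Over all 27095 windows Tcf4 stood at percentile 60.6 in wild type, Id1 at 51.8 and Tcf3 at 48.2. Id3 stood at 47.9, Id2 at 39.7 and Tcf12 at 25.3.

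In cKO Tcf4 was again first, at 0.985 ± 0.0424 CPM per kb, and at percentile 60.2 it now stood above the tested median of 0.687. Id1 followed at 0.530 ± 0.402, Id3 at 0.374 ± 0.0716, Id2 at 0.199 ± 0.0319, Tcf3 at 0.158 ± 0.0605 and Tcf12 at 0.0439 ± 0.0107, which is percentile 0.615 of tested genes. The SDs of Id1 and Id3 overlapped, as did those of Id2 and Tcf3. Over all 27095 windows Tcf4 stood at percentile 75.4 in cKO and Tcf12 at 17.0. The E proteins thus spread apart. Per kb, Tcf4 stood 4.16 and 4.38 times above Tcf12 in the wild-type libraries and 18.6 and 28.0 times in the cKO libraries.

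The Id genes carried few counts in every library. Id1 (Entrez 15901, chromosome 2, 152736251 to 152737410), a target of BMP signalling, had 4 counts in each wild-type library, 19 in cKO library 1 and 6 in cKO library 2. In CPM these were 1.55 and 1.83 against 5.81 and 1.75, so 1 cKO library stood high and the other lay between the wild-type values. Id2 (Entrez 15902, chromosome 12, 25093799 to 25096092) had counts of 4 and 2 in wild type and of 6 and 5 in cKO. Its CPM were 1.55 and 0.916 against 1.83 and 1.46, and the genotypes overlapped.

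Id3 (Entrez 15903, chromosome 4, 136143822 to 136145392), which restrains E proteins in T and B cells, had counts of 3 and 4 in wild type and of 8 and 11 in cKO. Its CPM were 1.16 and 1.83 against 2.45 and 3.21, without overlap, although 3 counts is the limit that a count of 0 allows. From the summed counts and library totals, the cKO to wild-type ratio was 2.14 for Id1 with an exact binomial 95% interval of 0.938 to 5.50, 1.26 for Id2 with 0.427 to 4.14, and 1.86 for Id3 with 0.750 to 5.24. These intervals cover counting error only and all include 1, so no difference was detected at any of the 3 genes at this depth. They are wide, and a difference is not excluded. With no count filter the edgeR fit took in Id1, Id2 and Id3, at log2 fold changes of 1.16 ± 0.71, 0.40 ± 0.98 and 0.94 ± 0.80 (SE), and called 0 of them.

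Id4 (Entrez 15904, chromosome 13, 48261116 to 48266028), which acts in neural and mammary progenitors, held 0 counts in all 4 libraries. This cannot be read as absence of the mark. By reference spans with 3 kb on each side, the window of the non-coding gene A330033J07Rik covers 68.8% of that of Id4, start included. The Id4 window as counted is 8.61 kb, shorter than this span, so its exact shared part is not known. Windows lying wholly within others were mostly empty (67.1% of 2445 without a count), while of 10808 free of any overlap 1.27% were. The genes around Id4 did carry counts. Per kb, A330033J07Rik stood at 1.46 ± 0.0428 CPM in wild type against 1.26 ± 0.00617 in cKO, and A330048O09Rik, which begins 6.39 kb past Id4, at 2.80 ± 0.208 and 2.54 ± 0.342 (SD, n = 2 each).

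The nearest tested gene on each side of a member was read for comparison. Only genes that passed the count filter could be named, and some lay as far as 392 kb away. They therefore cannot show whether the immediate surroundings of a member were unmarked. In wild type Tcf4 lay below both of its neighbours, the non-coding gene 4930546C10Rik, 392 kb away, at 1.17 ± 0.0678 CPM per kb and Ccdc68, a coiled-coil protein gene 237 kb away, at 0.782 ± 0.217. In cKO it lay above both, which then stood at 0.722 ± 0.126 and 0.636 ± 0.122. 4930546C10Rik was itself called lost, with a log2 fold change of −0.70 ± 0.15 (SE, edgeR adjusted p = 0.000198), and Ccdc68 was not called, at −0.29 ± 0.19 (adjusted p = 0.46). The loss was not called without cKO library 1 (−0.53) or with housekeeping scaling (−0.40). The higher Tcf4 level in cKO was thus not matched at either of these distant tested genes, and nearer sequence outside the Tcf4 window was not read.

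The nearest tested genes of Tcf3, and the 1 shown for Tcf12, were more marked than these members. Uqcr11, whose window overlaps that of Tcf3, held 0 and 0 counts in wild type and 0 and 4 in cKO. It was not tested. Plk5, a polo-like kinase gene 44.1 kb from Tcf3, stood at 10.6 ± 0.403 CPM per kb in wild type against 9.70 ± 0.497 in cKO, and Onecut3, a homeobox gene 60.9 kb away on the other side, at 13.6 ± 1.84 and 14.7 ± 0.133. Cgnl1, a junction protein gene 35.0 kb from Tcf12, stood at 2.00 ± 0.0787 and 2.02 ± 0.0949. None of these 3 was called (adjusted p of 0.596 to 0.949 by edgeR).

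The neighbours of Id1 to Id3 were mixed. H13, a signal peptide peptidase gene, and Cox4i2, a cytochrome oxidase subunit gene with 71.9% of its window shared, flanked Id1 at 0.180 and 0.501 CPM per kb in wild type. Kidins220 and Gm17746 flanked Id2 at 0.129 and 0.482. Myom3, a muscle structural gene 328 kb from Id3, stood at 1.79 and E2f2, a cell cycle transcription factor gene 26.9 kb away, at 0.217. None of the 6 was called (adjusted p of 0.221 to 0.992 by edgeR).

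**Figure D2:**
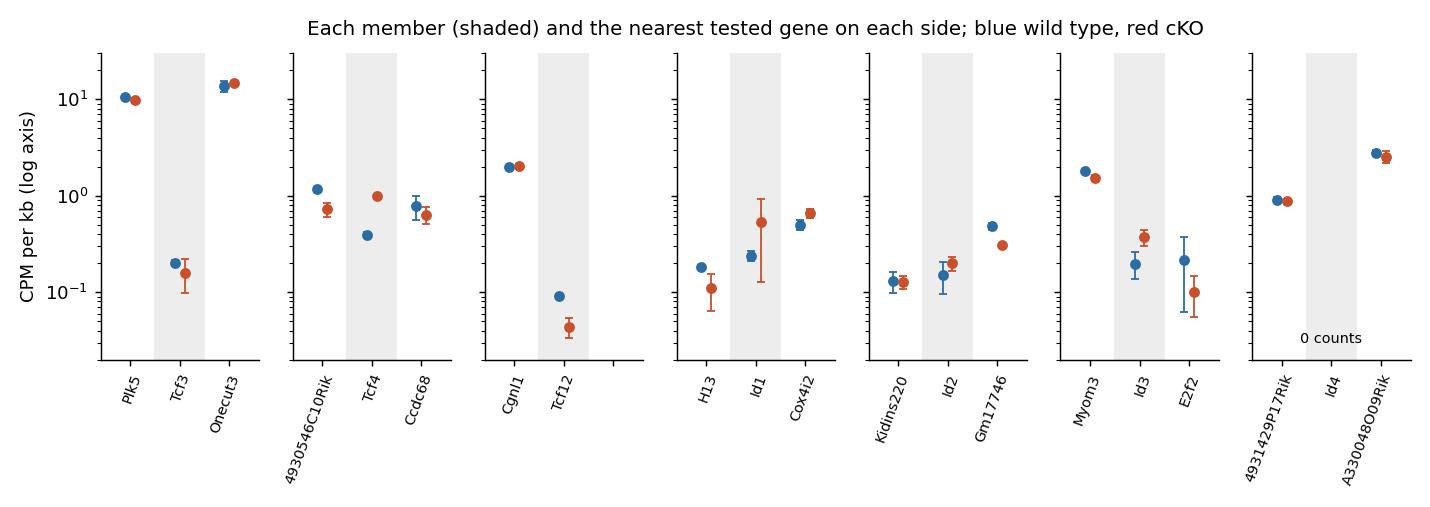
CPM per kb (log axis) of each member (shaded) and of the nearest tested gene at lower (left) and higher (right) coordinates; points are means and whiskers 1 SD (n = 2), blue for wild type and red for cKO. Tcf3 lies far below both neighbours and Tcf12 below the 1 shown, in both genotypes, whereas Tcf4 moves from below its neighbours in wild type to above them in cKO; Id4 had 0 counts.

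The Tcf4 and Tcf12 windows are among the longest, at 349 and 274 kb, and long windows were called more often. Of 949 tested windows of at least 200 kb, a length set after those of the members were seen, 10.0% were called gained and 6.22% lost. Their median log2 fold change was −0.03, and that of all tested genes −0.01. Within these long windows Tcf4 had the 12th highest fold change and Tcf12 the 3rd lowest, and among all 16752 genes Tcf4 ranked 169th from the top and Tcf12 464th from the bottom.

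Tcf12 also belongs to the 1676 tested windows of lowest mean level, at or below 0.107 CPM per kb over both genotypes. Those windows were mostly lower in cKO: 83.4% had a negative log2 fold change, against 51.7% of all tested genes, with a median of −0.45, and 3.70% were called lost. In that group Tcf12 had the 156th lowest fold change. Its log2 fold change, −1.06, had the same sign as most windows of that group and lay further from 0 than their median. What part the low level had in it was not tested. Tcf3 and Tcf4 lay above that range.

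**Figure D3:**
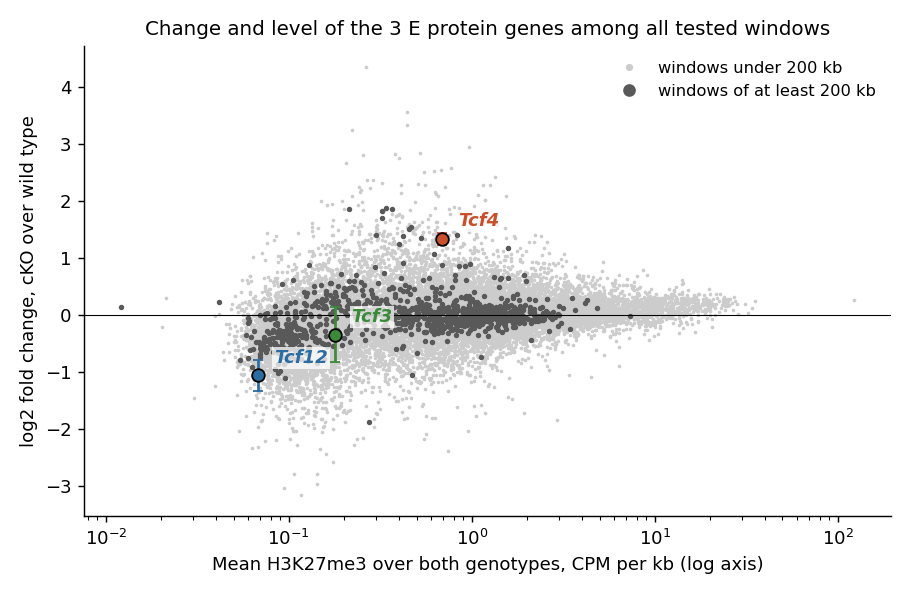
Log2 fold change of cKO over wild type against the mean CPM per kb over both genotypes (log axis), with a point for each of 16752 tested genes, darker for windows of at least 200 kb, and bars of 1 SE on the 3 E protein genes. Tcf4 lies near the top of the long windows, and Tcf12 lies at the low end of the level, where most points are below 0.

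The genes whose level over the 4 libraries was most like that of Tcf4, by Euclidean distance in log2 CPM per kb, were Trav6n-5, a T cell receptor segment with near-identical copies and a window 52.4% shared, at a distance of 0.20, and Cald1 and Fam43a, each at 0.27. Cald1, the caldesmon gene, went from 26.4 ± 2.20 to 66.1 ± 5.95 CPM (SD, n = 2 each) and was called gained. Fam43a, with counts of 7 and 8 in wild type against 28 in both cKO libraries, was not called (edgeR adjusted p = 0.0661). Those most like Tcf12 were Mkln1, Arid4b and Ankib1, at distances of 0.20, 0.24 and 0.24, each between 0.0868 and 0.0920 CPM per kb in wild type. Arid4b, a chromatin regulator gene, was called lost (log2 fold change −1.15 ± 0.38, edgeR adjusted p = 0.0465), but not without any 1 library, at −0.90 to −1.42, nor with no count filter (−1.13) or housekeeping scaling (−0.88). These genes were picked by their values in the same 4 libraries of 2 genotypes, so fold changes near that of the member follow from the choice. Their calls and adjusted p are a description and support nothing further.

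The genes that work with the family were read from 6 lists, of which 125 genes were tested, each counted once. They gave 7 gained (5.60%) and 2 lost (1.60%), against 4.46% and 1.96% of all tested genes, and a median log2 fold change of 0.05. The lists, like the members, were written with earlier results of these data known. Their counts and the adjusted p of their genes are thus a description and support nothing further. Without wild-type library 1, 11 were gained and 2 lost, and without wild-type library 2, 4 and 1. Without cKO library 1 the counts were 5 and 1, and without cKO library 2, 5 and 0. By DESeq2 they were 4 and 0. Of 12 tested housekeeping genes 0 were called, with a median of −0.25; the 3 of lowest p were Tfrc, the transferrin receptor (−1.04 ± 0.36, edgeR adjusted p = 0.0572), Reep5 (−1.71 ± 0.64, 0.0902) and Gpi1, a glycolytic enzyme (−1.14 ± 0.50, 0.185).

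Among coregulators of E proteins, 2 of 14 tested gained (14.3%) and 0 lost, against 4.46% and 1.96% of all tested genes. The median log2 fold change of the list was −0.13. Cbfa2t3, the corepressor ETO2 that joins E protein complexes in blood progenitors, held 33.0 and 36.2 CPM in wild type and 166 and 167 in cKO (log2 fold change 2.27 ± 0.14, edgeR adjusted p = 1.12e-38). Ssbp2, a cofactor of LDB1 complexes, rose from 397 ± 6.33 to 602 ± 5.81 CPM (SD, n = 2 each; adjusted p = 7.66e-09). In both genes the genotypes stood well apart and the call held under every alternative run. Runx1t1, the ETO corepressor, was not called at −0.20 ± 0.11 (adjusted p = 0.357). Housekeeping scaling put it at 0.09.

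The class II bHLH partners, which give E protein dimers their tissue specificity, had a high median level of 7.70 CPM per kb in wild type against 7.04 in cKO. Many of their windows are short, such as that of Olig2 at 9.13 kb, and what part this had in the level was not tested. Among the 39 tested, 1 gained and 1 lost (2.56% each, against 4.46% and 1.96% of all tested genes), with a median log2 fold change of 0.04. Olig2, of oligodendrocyte and motor neuron lineages, gained (0.34 ± 0.11, edgeR adjusted p = 0.0331), and Ferd3l, a neural bHLH gene, lost (−0.70 ± 0.19, adjusted p = 0.0091). Leaving out wild-type library 2, or either of the cKO libraries 1 and 2, ended the call of Olig2 (0.17, 0.42 and 0.27) and of Ferd3l (−0.60, −0.68 and −0.70). Neither was called by DESeq2 (0.35 and −0.70) or with housekeeping scaling (0.64 and −0.42), and Olig2 also not with library totals (0.29), upper-quartile factors (0.26) or thinned counts (0.33). Ascl2, of intestinal stem cells and trophoblast, was not called at 0.31 ± 0.13 (adjusted p = 0.125).

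Of 22 genes of the BMP and Smad pathway, which induces the Id genes and includes its own inhibitors, 2 gained (9.09%) and 0 lost. Of all tested genes 4.46% gained and 1.96% lost. The median log2 fold change of the 22 was 0.08. Smad6, an inhibitory Smad, rose from 67.8 ± 3.79 to 111 ± 0.422 CPM (SD, n = 2 each; edgeR adjusted p = 1.24e-05), with both cKO libraries above both wild-type ones. Acvrl1, the ALK1 receptor for BMP9 and BMP10, had counts of 8 and 4 in wild type against 27 and 34 in cKO (log2 fold change 1.84 ± 0.51, adjusted p = 0.00918). It was not called without wild-type library 2 (1.55) or cKO library 2 (1.70), nor with thinned counts (1.61). By DESeq2, Smad6 was the only gene of this list called. Smad7, the other inhibitory Smad, was not called at −1.14 ± 0.40 (edgeR adjusted p = 0.0636), but was with upper-quartile factors (−1.22).

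Among targets and dependent lineages of the family, the share called was near the 6.42% of all tested genes, at 4.35% of lymphoid targets and 7.14% of both plasmacytoid dendritic cell genes and genes of Id2-dependent lineages. Of 23 lymphoid targets of E proteins 1 gained, the Notch target Hes1 (0.40 ± 0.12, edgeR adjusted p = 0.0216), and 0 lost, with a median of 0.25. The Hes1 call was lost when wild-type library 2 was left out (0.24), as when either cKO library was (0.42 without library 1, 0.39 without library 2). It was also lost by DESeq2 (0.40), with library totals (0.34), upper-quartile factors (0.31), housekeeping scaling (0.69) and thinned counts (0.34). Foxo1, a regulator of lymphocyte development, and Notch3, a T cell Notch receptor, were not called at 0.26 ± 0.11 and 0.29 ± 0.12 (adjusted p = 0.127 and 0.145).

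Of 14 plasmacytoid dendritic cell genes, the programme that Tcf4 directs, 0 gained and 1 lost, with a median of 0.03. That gene was Tlr7, an endosomal RNA sensor that macrophages also use, at 17.5 and 17.4 CPM in wild type and 7.34 and 5.55 in cKO (log2 fold change −1.43 ± 0.34, edgeR adjusted p = 0.00141). It was not called without cKO library 2 (−1.24). By DESeq2, 0 of these plasmacytoid dendritic cell genes were called, Tlr7 included. Irf8 and Bcl11a, transcription factors of that lineage, were not called at 0.58 ± 0.52 and 0.09 ± 0.10 (edgeR adjusted p = 0.613 and 0.693). Of 14 genes of Id2-dependent lineages 1 gained and 0 lost, with a median of 0.17. Zbtb16, which encodes PLZF of innate lymphoid precursors, rose from 592 ± 39.9 to 855 ± 21.9 CPM (SD, n = 2 each; edgeR adjusted p = 1.31e-07), and was not called with housekeeping scaling (0.82). Batf3, of classical dendritic cells, and Ncr1, of NK cells, were not called at 1.29 ± 0.47 and 1.12 ± 0.43 (adjusted p = 0.0803 and 0.106), and Batf3 was called with housekeeping scaling (1.56). Ncr1, with counts of 12 and 10 in wild type against 46 and 21 in cKO, was called without cKO library 2 (1.60) and was at 0.41 without cKO library 1.

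**Figure D4:**
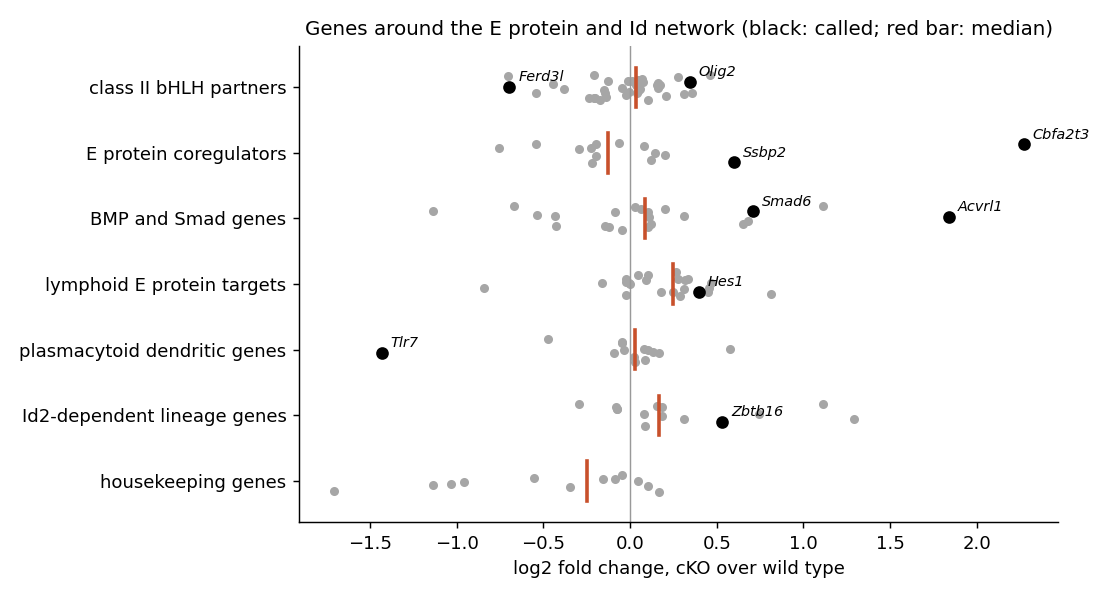
Log2 fold change of cKO over wild type for every tested gene of 7 lists (a point per gene, black and named where called, with a red bar at the list's median). Medians lie between −0.25 and 0.25, and Cbfa2t3, Acvrl1 and Tlr7 are the called genes farthest from 0.

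**Figure D5:**
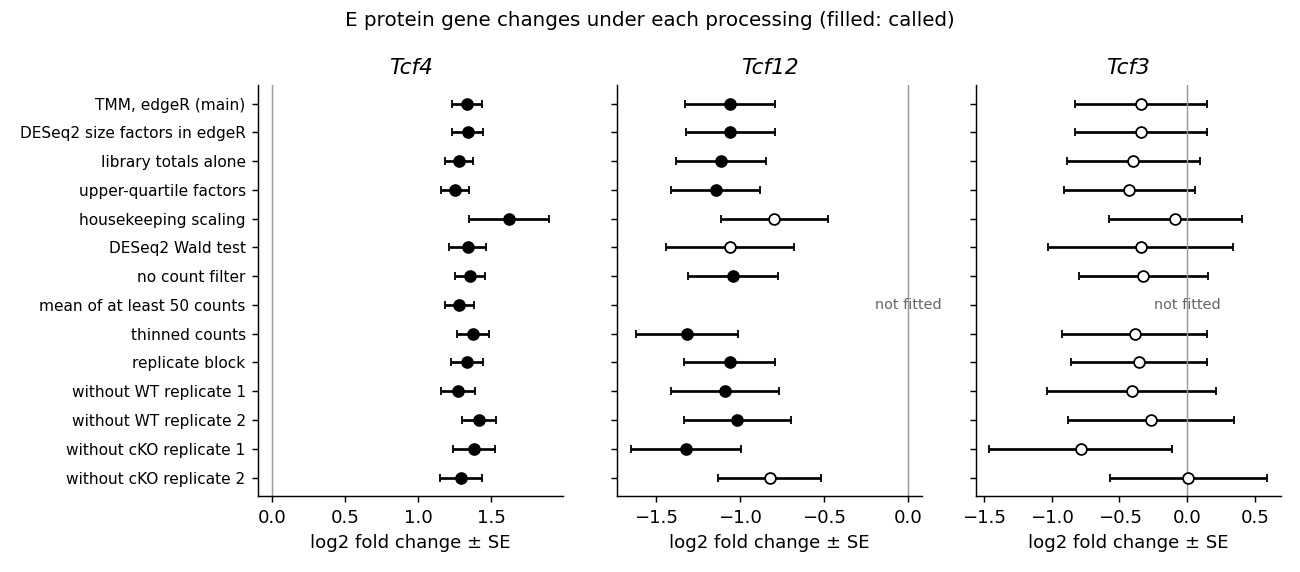
Log2 fold change of Tcf4, Tcf12 and Tcf3 with its SE (horizontal axes) under each processing (rows), filled where called. Tcf4 stays between 1.25 and 1.62 and called throughout, Tcf12 loses its call in 3 rows and Tcf3 has none; with a mean of at least 50 counts Tcf12 and Tcf3 were not fitted.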

How the data were processed

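H3K27me3 Cut&Tag libraries were made from 100000 sorted cells with 0.5 µg of antibody and read as 36 bp pairs, per the labels. The authors deposited whole-number counts per gene window for the 4 libraries, made with featureCounts on mm10 per the submitters' processing notes, with window lengths in bp; the aligner, duplicate handling, counting options and any spike-in were not given in the sources used here. For 11525 of 27095 genes the length equals the GRCm38.p6 gene span plus 3 kb on each side. For the rest it differed or the ID was not found. Symbols were found for 93.0% of IDs in the GRCm38.p6 table, which also gave positions. Overlaps were worked out from its spans with 3 kb on each side for every gene found.

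The deposited counts were fitted genome-wide with edgeR 4.0.16 under R 4.3.3 (filterByExpr, TMM, estimateDisp, glmQLFit, glmQLFTest, genotype only, Benjamini-Hochberg adjustment), leaving 16752 genes; an adjusted p below 0.05 is a call. SEs are the fold change divided by the square root of F. Promoters came from RefSeq. The fit was tested on simulated data. Alternatives were other scalings, filters, thinning to the smallest library, a replicate block, DESeq2 1.42.0 and leaving out each library.

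The members and lists were chosen with earlier results of these data known. Named genes were the members, the 3 genes of lowest p in each list, the nearest tested gene on each side of a member, and the 3 tested genes nearest in level to each called member. Predicted genes, microRNAs and genes without a symbol were left out of the last. A further neighbour of Tcf12 is not reported here. The ranges of long and of low windows were set after seeing values. With 2 libraries per genotype, Dixon's outlier test was not run.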

Additional observations from a re-analysis of the deposited data

How the results depend on the processing

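With 2 libraries per genotype at this depth, windows with few counts, such as those of Id1 to Id3 and Tcf3, can show only large changes. CPM are shares of a library, so a change of the mark everywhere alike would not show. Higher and lower values, and genes called gained or lost, are therefore relative to the rest of the library. The scaling moved the median log2 fold change of all genes from −0.01 to 0.27 with housekeeping genes, to −0.10 with upper-quartile factors and to −0.07 with library totals.

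Genes called numbered 1076 (747 gained, 329 lost). There were 494 gained and 519 lost with upper-quartile factors, 571 called and 26 lost with housekeeping scaling, and 376 called, 324 gained and 52 lost by DESeq2. Leaving out 1 library gave 426 to 945 called, 350 to 738 gained and 76 to 207 lost, with the lone library of a genotype assumed to vary like the other pair. In the 6 lists 9 genes were called (7 gained, 2 lost). The counts were 4 called, 4 gained and 0 lost by DESeq2, 1 lost with housekeeping scaling and when a mean of 50 counts was required, and 4 gained with thinned counts; leaving out 1 library gave 5 to 13 called, 4 to 11 gained and 0 to 2 lost.

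Of the members, 1 was called and 0 lost with housekeeping scaling, by DESeq2, when a mean of 50 counts was required (which drops Tcf12) and without cKO library 2; leaving out 1 library gave 1 to 2 called and 0 to 1 lost. Tcf12 was not called with housekeeping scaling (−0.80) or by DESeq2 (−1.06), and ranged from −1.32 to −0.82 when 1 library was left out. Tcf3 likewise ranged from −0.79 to 0.0073. Runx1t1 turned to 0.0873 with housekeeping scaling, and Ccdc68 ranged from −0.552 to 0.0235 when 1 library was left out, the latter without wild-type library 2. The Tcf3 level in wild type was 0.225 CPM per kb of unshared window. The cause was not tested beyond what each alternative leaves out.

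With the replicate number as a block, 1039 genes were called, and Tcf4 (1.33), Tcf12 (−1.06) and Tcf3 (−0.36) kept their side of the threshold, while Arid4b (−1.15) lost its call. The labels do not say that numbers pair libraries, and deviations of same-numbered libraries correlated at 0.0084 over 16752 genes.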
